A study of Saccharomyces cerevisiae with 119 samples.

Results

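The respiratory chain of budding yeast passes electrons from NADH and succinate to oxygen in the inner mitochondrial membrane, and ATP synthase uses the proton gradient that complexes III and IV build to make ATP. Saccharomyces cerevisiae has no proton-pumping complex I. Single-protein NADH dehydrogenases take its place, and many nuclear genes of the chain are held low during fermentation on glucose and raised by the Hap2/3/4/5 activator, which binds CCAAT sequences, once glucose is used up. The genes described here were chosen by their systematic names as subunits of this machinery that are encoded in the nucleus. They are 35 of the 6685 genes in the count table: 12 of ATP synthase, 7 of complex IV (cytochrome c oxidase), 9 of complex III (the cytochrome bc1 complex), all 4 of complex II (succinate dehydrogenase) and the 3 NADH dehydrogenases. The subunits encoded in mitochondrial DNA were not analysed here.

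RNA was measured in 8 diploid strains. They are the laboratory strain S288c in its derivative DBY8268, the vineyard strains M1 and M22, the coconut strain Y10, the fermentation strain YJM1129, the clinical isolate YJM308 and the oak strains YPS163 and YPS606. Each was grown in rich glucose medium and sampled unstressed, after 30 min in 5% ethanol and after 45 min in 0.4 M NaCl, so the agent and the time cannot be told apart. There were 3 biological replicates a group, except 2 of Y10 in ethanol, which gave 71 libraries. By the study's methods each culture was sampled unstressed and then split between the stresses, so libraries of a strain and replicate number are paired. A second experiment of 48 libraries, with 4 replicates a group, took the same conditions in wild-type YPS606 and in its homozygous deletions of MSN2 with MSN4 (msn2/4), of SKN7 and of YAP1, genes for stress transcription factors. Each mutant is a deletion in that single oak background, and none of the strains was tested here for respiration itself.

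Libraries held 7726938 to 18253411 estimated counts, and all 35 genes passed the filter on low values in both experiments, which left 6090 genes in the strains and 5748 in the mutants. Levels are given as CPM, counts scaled by library size and TMM factor, and fold changes as log2 values ± SE from edgeR's quasi-likelihood test, with p-values adjusted over all genes of a comparison. A gene was called changed at an adjusted p under 0.01 with at least a 1.5-fold change. YPS606 ethanol replicate 3 had the lowest scaling factor, 0.513, and leaving it out ended 1 call of a named value, that of COX12 in M1. In that library complex II summed to 1338.9 CPM, against 651.76 and 642.5 in replicates 1 and 2. ATP synthase summed to 7332.1 against 5439.4 and 5344.5, and complex III was lower, at 2110.3 against 2457.4 and 2491.9. The title of a Y10 NaCl sample conflicts with its other labels, which were used. In the mutants the deleted genes had at most 7 counts in any of the 12 libraries of their own genotype, against 92 to 2277 in the wild-type libraries. In bulk cultures, fewer cells that express a gene and less RNA per cell cannot be told apart.

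Per kilobase of coding sequence, and averaged over the 8 strains unstressed, the genes spanned a wide range. ATP2 (YJR121W), the catalytic beta subunit of ATP synthase, had the highest level at 947 CPM per kb, followed by the complex III subunit QCR6 at 585 and the ATP synthase alpha subunit ATP1 (YBL099W) at 505. NDE1 (YMR145C), a dehydrogenase that oxidises cytosolic NADH at the outer face of the inner membrane, stood at 423 CPM per kb. The matrix-facing enzyme NDI1 (YML120C) was at 40.3, and NDE2 (YDL085W), the second external enzyme, at 0.432. Among the subunits of complex II the membrane anchor SDH3 was at 165 CPM per kb and the iron-sulfur subunit SDH2 at 38.8. No stretch of 40 bases in the coding sequence of any of the 35 genes occurs elsewhere in the R64 genome, so exact matches of that length place a read in 1 gene only.

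Before any stress the strains already differed, and the genes did so together. The 35 genes summed to 2456 to 2787 CPM in the 3 S288c libraries and 2996 to 3875 in YJM1129. The sums ran from 4549 to 4977 CPM in M1, 5447 to 6215 in M22, 7125 to 8205 in Y10, 9527 to 11047 in YPS606 and 10048 to 10907 in YPS163. In YJM308 they were between 5098 and 6192 CPM. S288c and YJM1129 lay below every library of the other strains without overlap, and the oak strains lay above them, while M22 and YJM308 overlapped each other.

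Against the mean of the 8 strains, 30 of the 35 genes were lower in unstressed S288c and 0 were higher, where 5.67% of all genes tested were lower. In YJM1129 29 were lower against a background of 4.68%. In YPS163 31 were higher against 8.37%, and in YPS606 30 were higher against 5.86%. The median log2 difference of the 35 genes was -1.01 in S288c, -0.77 in YJM1129, 0.90 in YPS163 and 0.79 in YPS606, while that of all genes lay between -0.06 and 0.05 in these strains. Y10 had 7 genes higher against 4.76%, led by QCR6 at 0.80 ± 0.16, ATP20 at 0.77 ± 0.14 and the complex III core protein QCR2 at 0.70 ± 0.09. M1 had 1 gene lower against 3.45%, the complex III subunit QCR10 at -0.61 ± 0.14. With 1 replicate left out M1 had between 0 and 3. M22 had 0 in either direction under edgeR, with 2 genes higher and 6 lower at an unadjusted p under 0.05. DESeq2 called 0 higher and 2 lower there. The share of all genes at that unadjusted p was not counted, here or in later comparisons that use it. The counts of 30, 29, 31 and 30 ranged over 27 to 29, 24 to 28, 28 to 30 and 28 to 34 with 1 replicate left out.

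**Figure D1:**
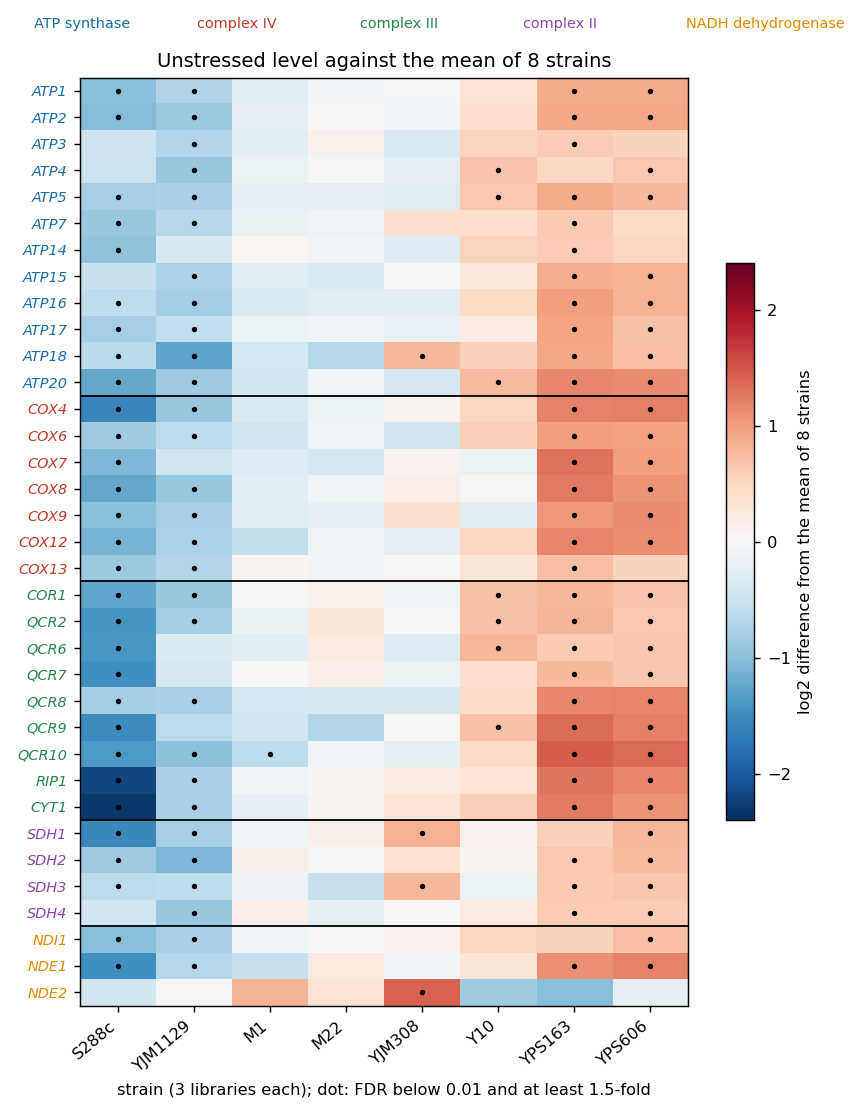
Log2 difference of each of the 35 genes (rows, by complex) from the mean of the 8 strains in unstressed cells (columns, 3 libraries each). Dots mark genes past the threshold. S288c and YJM1129 are blue in nearly every row, YPS163 and YPS606 red, and NDE2 at the bottom does not share the pattern.

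In S288c the deepest differences sat in complex III. CYT1 (YOR065W), which encodes cytochrome c1, stood at 30.7, 35.8 and 33.9 CPM in the 3 unstressed S288c libraries, at 95.1, 115 and 84.6 in YJM1129 and at 449, 358 and 375 in YPS163. The groups did not overlap, and the difference of S288c from the mean was -2.31 ± 0.14 (adjusted p = 1.81e-20). RIP1 (YEL024W), the Rieske iron-sulfur protein, read 29.0, 31.3 and 22.05 CPM in S288c against 319, 313 and 282 in YPS163. Its difference from the mean was -2.18 ± 0.13 in S288c and 1.29 ± 0.09 in YPS163. COX4, a complex IV subunit, followed at -1.58 ± 0.13 in S288c. All 9 complex III genes were lower in S288c, with a median of -1.41, as were 9 of 12 ATP synthase genes with a median of -0.80.

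YJM1129 was low in another order. Its largest differences were those of ATP18 (YML081C-A), a small membrane subunit of ATP synthase, at -1.26 ± 0.22, of SDH2 at -1.08 ± 0.13 and of QCR10 at -0.98 ± 0.14. Of its complex III genes 6 of 9 were lower with a median of -0.78, and of its ATP synthase genes 11 of 12 with a median of -0.77. In the oak strains the top gene was QCR10 (YHR001W-A), at 1.45 ± 0.11 in YPS163 and 1.35 ± 0.11 in YPS606. QCR9, another small subunit of complex III, came next at 1.34 ± 0.17 and 1.22 ± 0.18. COX7 stood at 1.31 in YPS163 and COX4 at 1.20 in YPS606.

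In YJM308 4 genes were higher against 11.1% of all genes: SDH1, the flavoprotein of complex II, at 0.83 ± 0.10, SDH3 at 0.77 ± 0.13, ATP18 at 0.78 ± 0.17 and NDE2 at 1.41 ± 0.26. SDH1 (YKL148C) and SDH3 (YKL141W) lie on chromosome XI, as does ATP7, which stood at 0.39 ± 0.08 and was not called. The 312 tested genes of chromosome XI had a median of 0.77 in YJM308, near the values of SDH1 and SDH3, and medians from -0.18 to -0.05 elsewhere. ATP18 lies on chromosome XIII and NDE2 on chromosome IV. The count of 4 was 2 without replicate 1 and 5 without replicate 3.

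The regulators and the partner genes of the chain were read beside these values, and their part in them was not tested. HAP4, which carries the activation domain of the Hap complex, differed from the mean by -1.50 ± 0.12 in S288c, was also called lower in YJM1129, and differed by 0.72 ± 0.10 in YPS163 and 0.95 ± 0.10 in YPS606. HAP4 was also at -1.01 ± 0.12 in M1, where 1 of the 35 genes was called, and at 0.83 ± 0.10 in YJM308, where the 35 genes had a median of -0.02. HAP4 lies on chromosome XI, so its value in YJM308 stood beside a median of 0.77 for that chromosome. HAP1, a heme-responsive activator, read 1.28 ± 0.09 above the mean in S288c. The HAP1 of that laboratory strain is known to carry a transposon and to be partly inactive, so its RNA level is not a measure of its activity. In S288c CYC1, the main cytochrome c, stood at -2.57 ± 0.12 and COX5B, the isoform of a complex IV subunit that is used when oxygen is low, at 2.28 ± 0.14. INH1, an inhibitor of ATP hydrolysis by ATP synthase, was at -2.08 ± 0.18 in S288c and -2.41 ± 0.19 in YJM1129.

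Since these genes moved together between strains, the sequence before them was read from the R64 reference, which is the S288c genome. The window was the 300 bases that begin 400 bases before the start codon, so it stops short of it. A CCAAT on either strand occurred in 32 of the 35 windows and in 43.9% of the 6007 windows of all genes. All 12 ATP synthase and all 4 complex II windows held it. The windows without it were those of COX4, CYT1 and NDE2. AGGGG on either strand, the core of the sequence that Msn2 and Msn4 bind, occurred in 13 of 35 windows and in 23.6% of all. A match is only a match of letters, the same window in the other strains was not read, and sequence outside the window was not searched. The part of either motif in the strain differences was not tested. Windows are shown for genes that the results turn on, in the direction of the gene, with CCAAT and AGGGG and their reverse complements in capitals.
NDE1 (chrXIII:556576-556875, minus strand): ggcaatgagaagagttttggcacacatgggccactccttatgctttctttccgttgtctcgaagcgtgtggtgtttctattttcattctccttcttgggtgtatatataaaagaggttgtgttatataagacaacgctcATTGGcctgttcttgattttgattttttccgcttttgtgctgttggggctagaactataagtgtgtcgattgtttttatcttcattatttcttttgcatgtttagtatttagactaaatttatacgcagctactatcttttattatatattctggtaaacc
NDE2 (chrIV:302811-303110, plus strand): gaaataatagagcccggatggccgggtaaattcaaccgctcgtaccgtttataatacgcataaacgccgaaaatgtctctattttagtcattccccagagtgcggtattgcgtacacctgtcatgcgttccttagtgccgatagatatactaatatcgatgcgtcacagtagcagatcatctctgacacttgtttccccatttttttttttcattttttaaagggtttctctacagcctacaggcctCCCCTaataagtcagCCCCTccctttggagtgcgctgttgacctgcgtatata
SDH4 (chrIV:817550-817849, plus strand): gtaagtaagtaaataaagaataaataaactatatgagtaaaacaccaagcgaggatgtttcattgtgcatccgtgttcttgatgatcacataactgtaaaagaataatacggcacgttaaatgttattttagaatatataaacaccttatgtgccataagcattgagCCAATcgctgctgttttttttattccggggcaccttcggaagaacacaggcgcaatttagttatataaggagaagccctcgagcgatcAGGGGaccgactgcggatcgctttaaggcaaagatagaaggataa
QCR8 (chrX:106034-106333, plus strand): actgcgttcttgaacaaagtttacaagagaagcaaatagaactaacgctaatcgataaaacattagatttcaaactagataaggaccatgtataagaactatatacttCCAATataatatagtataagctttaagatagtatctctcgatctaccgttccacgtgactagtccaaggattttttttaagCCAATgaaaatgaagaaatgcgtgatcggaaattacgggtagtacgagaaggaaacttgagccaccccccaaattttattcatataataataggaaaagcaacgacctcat
RIP1 (chrV:106860-107159, plus strand): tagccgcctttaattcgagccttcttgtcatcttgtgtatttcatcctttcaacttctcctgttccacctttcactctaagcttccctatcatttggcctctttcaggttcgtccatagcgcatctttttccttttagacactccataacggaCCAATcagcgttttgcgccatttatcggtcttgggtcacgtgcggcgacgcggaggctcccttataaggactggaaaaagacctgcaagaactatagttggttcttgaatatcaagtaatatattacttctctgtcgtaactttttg
CYT1 (chrXV:447039-447338, plus strand): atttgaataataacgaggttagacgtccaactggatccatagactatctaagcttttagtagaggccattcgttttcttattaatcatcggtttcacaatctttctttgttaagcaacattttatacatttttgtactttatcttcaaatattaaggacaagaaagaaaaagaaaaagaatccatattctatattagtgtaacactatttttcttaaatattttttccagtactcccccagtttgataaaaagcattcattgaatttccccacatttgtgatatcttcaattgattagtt
The pair of external NADH dehydrogenases differed in both motifs. NDE1 held 1 CCAAT on the reverse strand, 257 bases before its start codon, and no AGGGG. NDE2 held no CCAAT and 2 AGGGG matches on the reverse strand, at 149 and 134 bases. SDH4 held both motifs, at 229 and 141 bases.

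After ethanol the chain moved unevenly, and how many genes count as raised depends on the fold limit. On the mean over the 8 strains 14 of the 35 genes rose by 1.5-fold or more, where 29.8% of all genes rose, and 1 fell, where 28.4% of all genes fell. The median log2 change of the 35 was 0.53 and that of all genes 0.05. Without the fold limit 27 were higher and 3 lower (ATP14, ATP20 and NDE1). The share of all genes past that looser threshold was not counted, so the 27 have no background to be read against. By complex, with the limit, 4 of 4 complex II genes rose, 4 of 7 of complex IV, 3 of 9 of complex III, 1 of 12 of ATP synthase and 2 of 3 NADH dehydrogenases. The genes listed for complexes III and IV are mostly small subunits around the catalytic core, and so were those called. QCR8 (YJL166W) rose by 1.41 ± 0.08, QCR10 by 1.33 ± 0.07, COX13 (YGL191W) by 1.12 ± 0.05, COX7 by 0.81 ± 0.12, COX12 by 0.71 ± 0.06 and COX6 by 0.67 ± 0.06. RIP1, a catalytic subunit, rose by 1.11 ± 0.06. The smallest changes in the same complexes were those of QCR2, a core protein, at 0.11 ± 0.05 and of COX9 at 0.10 ± 0.09. In ATP synthase ATP17 (YDR377W), a membrane subunit, rose by 0.91 ± 0.05, and ATP20, a subunit at the dimer interface, was lowest at -0.38 ± 0.08 and was not called.

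COX13 shows how far the strains shared this. It read 39.4 to 49.0 CPM unstressed and 48.4 to 53.6 after ethanol in S288c, which overlapped, and 47.3 to 56.3 and 171 to 225 in YJM1129, which did not. In YJM308 it lay between 77.8 and 91.7 CPM unstressed and between 327 and 358 after ethanol. In 6 of the 8 strains every ethanol library lay above every unstressed library. ATP17 and QCR10 did so in all 8 strains.

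NaCl called fewer of the genes. On the mean over strains 10 rose, where 18.8% of all genes rose, and 2 fell, where 20.9% fell, with a median of 0.26 for the 35 genes and -0.06 for all. Without the fold limit 19 were higher and 8 lower, again with no count over all genes. All 4 complex II genes and all 3 NADH dehydrogenases rose, with RIP1 at 1.01 ± 0.06, QCR10 at 0.62 ± 0.07 and ATP15, the epsilon subunit of ATP synthase, at 0.85 ± 0.08. The genes that fell were both of ATP synthase: ATP14 by 0.63 ± 0.05 and ATP20 by 0.76 ± 0.08. ATP14 was close to the fold limit and was not called without replicate 2 (-0.56) or replicate 3 (-0.56), or with DESeq2's size factors (-0.56). No complex IV gene was called, and the values there ran from -0.32 ± 0.06 for COX6 to 0.36 ± 0.09 for COX9. In complex III the lowest was QCR6 at -0.30 ± 0.09.

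**Figure D2:**
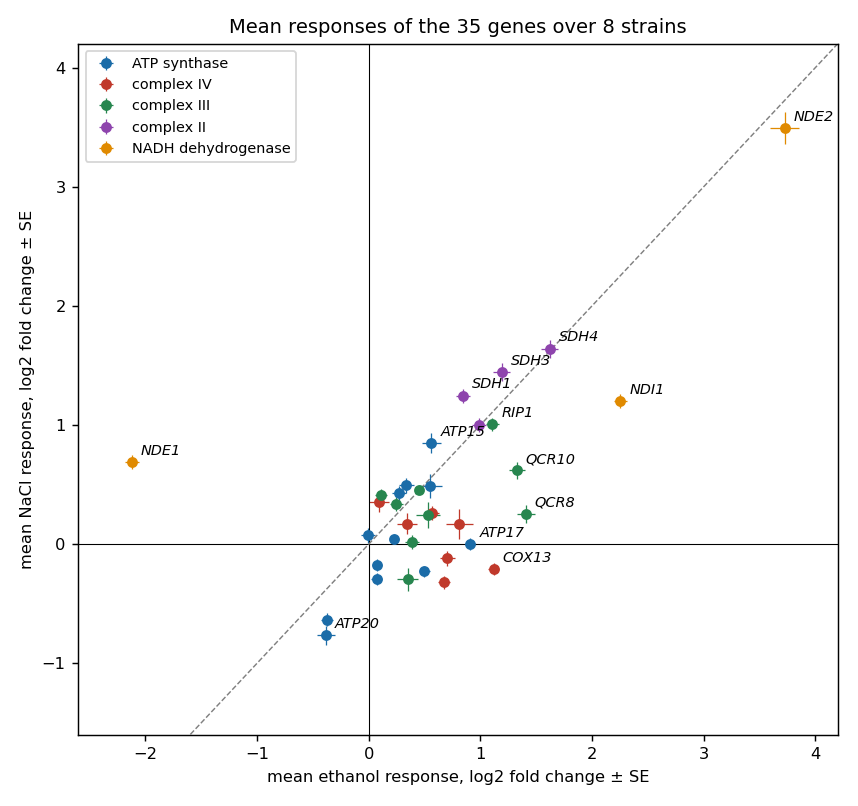
Mean log2 response to ethanol (horizontal axis) and to NaCl (vertical axis) over the 8 strains for each of the 35 genes, with SE bars, coloured by complex; the dashed line marks equal responses. Complex II lies near that line, COX13 and QCR8 lie well to its right, and NDE1 stands alone at -2.12 and 0.69.

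Ethanol and NaCl were then compared directly. Of the 35 genes 10 were higher under ethanol, which was near the 25.8% of all genes that were, and 1 was lower, where 23.3% were. The 10 were ATP7, ATP17, COX6, COX7, COX12, COX13, QCR6, QCR8, QCR10 and NDI1, led by COX13 at 1.33 ± 0.05 and QCR8 at 1.15 ± 0.08. The lower gene was NDE1 at -2.81 ± 0.06. Without the fold limit 17 were higher and 6 lower, and all genes were not counted that way. None of the 4 complex II genes was called in this comparison, with differences from -0.40 ± 0.06 for SDH1 to -0.01 ± 0.06 for SDH2.

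After ethanol the 3 NADH dehydrogenase genes had the largest mean responses of the 35, with NDI1 and NDE2 higher and NDE1 lower. After NaCl all 3 rose, and SDH1, SDH3 and SDH4 had larger changes than NDI1 and NDE1. NDE1 stood at 201 to 1528 CPM in the 24 unstressed libraries, with a median of 641, and at 55.2 to 344 in the 23 ethanol libraries, with a median of 136. In each of the 8 strains every ethanol library was below every unstressed library. In S288c the level went from 201, 251 and 204 CPM to 117, 107 and 119, and in M1 from 398, 418 and 425 to 77.9, 55.2 and 66.7. The mean change was -2.12 ± 0.06 (adjusted p = 2.29e-36). NaCl went the other way at 0.69 ± 0.06, with 354 to 1755 CPM and a median of 1109, and every NaCl library above the unstressed ones in 5 of the 8 strains.

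NDI1 rose under both stresses in every strain without overlap. Its unstressed libraries held 24.97 to 103 CPM with a median of 60.4. Those after ethanol held 177 to 458 with a median of 280.3, and those after NaCl 47.9 to 302 with a median of 133. The mean changes were 2.25 ± 0.06 and 1.20 ± 0.06, and the difference between the stresses was 1.05 ± 0.06. After ethanol the strains were closer in NDI1 than before it: the gap between the highest and the lowest strain mean was 1.76 on the log2 scale unstressed and 0.92 after ethanol, and 2.13 after NaCl.

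NDE2 rose from near nothing. Its 24 unstressed libraries held 1 to 26 estimated counts each, with a median of 5.5, against 29 to 256 after ethanol and 20 to 271 after NaCl, so its fold changes carry the widest errors of the set. In CPM it went from a median of 0.607 to 9.19 after ethanol and 9.45 after NaCl, again without overlap in any of the 8 strains. The mean changes were 3.73 ± 0.13 and 3.49 ± 0.13. Even so NDE1 remained the more abundant of the external enzymes per kilobase after ethanol, at 89.4 CPM per kb against 5.80 for NDE2. NDI1, at 181 CPM per kb, was then above both.

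**Figure D3:**
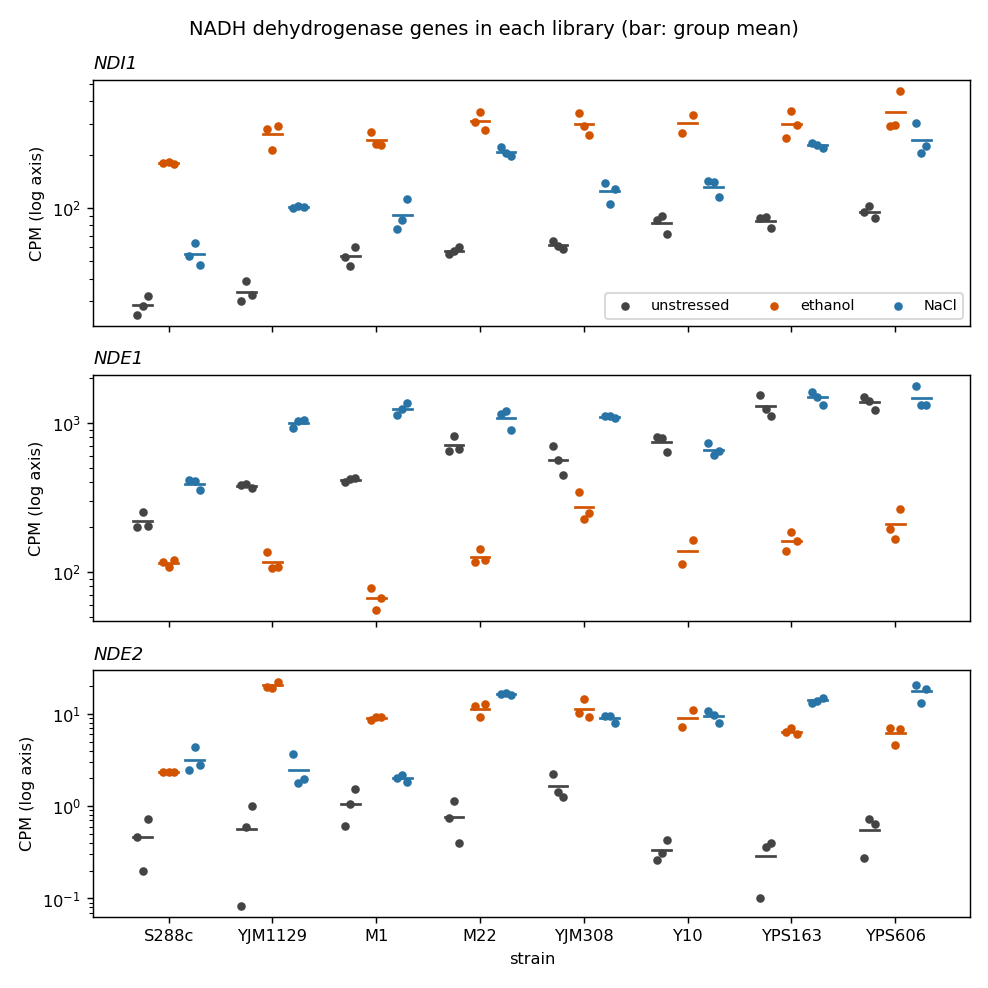
Level of NDI1, NDE1 and NDE2 in CPM on a log axis in each library of the 8 strains, unstressed (grey), after ethanol (orange) and after NaCl (blue), with bars at the group means. NDE1 falls after ethanol in every strain while NDI1 and NDE2 rise. Single NDE2 libraries after NaCl range from 1.78 CPM in YJM1129 to 20.6 in YPS606, while M1 has the lowest strain mean on the log2 scale.

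All 4 genes of complex II rose under both stresses. SDH4 (YDR178W), a membrane anchor, rose by 1.62 ± 0.08 after ethanol and 1.64 ± 0.08 after NaCl, SDH3 by 1.19 ± 0.08 and 1.45 ± 0.08, SDH2 by 0.99 ± 0.06 and 1.00 ± 0.06 and SDH1 by 0.85 ± 0.06 and 1.25 ± 0.06. In YPS163 SDH4 went from 70.9, 84.7 and 80.6 CPM to 169, 218 and 217 after ethanol and 369.5, 381 and 349 after NaCl. In S288c it went from 44.8, 39.7 and 28.1 CPM to 63.4, 65.4 and 46.6 and to 83.8, 79.5 and 72.2. SDH3 and SDH4 lay above their unstressed libraries in all 8 strains under both stresses, SDH1 in all 8 after NaCl and in 6 after ethanol. Summed over the complex, the oak strains had the largest values after NaCl, 1498 ± 119 CPM in YPS163 and 1632 ± 430 in YPS606 (SD, n = 3 each), and YJM308 after ethanol at 1265 ± 279 (SD, n = 3). The YJM308 sum includes SDH1 and SDH3 on chromosome XI, whose genes were at a median of 0.77 in that strain unstressed, and its complex II responses to ethanol, up to 0.63 ± 0.20 above the mean of the strains for SDH3, did not pass the threshold.

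The response of each strain to ethanol was then set against the mean response of the 8. In YJM1129 15 of the 35 genes responded above the mean, where 12.2% of all genes did, and 0 below it. QCR8 led with 1.48 ± 0.21 of extra log2 change, then NDE2 with 1.37 ± 0.35 and SDH1 with 1.28 ± 0.16. The count fell to 6 without replicate 1 and was 13 and 15 without the others. In S288c 2 genes responded above the mean (18.7% of all genes) and 5 below it (14.7%). Those above were NDE1 at 1.19, which is a smaller fall, and ATP20 at 0.68, and those below were NDE2 at -1.37, SDH4 at -0.98, COX13 at -0.97, SDH3 at -0.66 and COX6 at -0.60. Without replicate 1 the 5 became 2, without replicate 2 they became 3, and the 2 became 1 without replicate 2 or replicate 3. The complex IV genes summed to 162 ± 22.8 CPM unstressed and 193 ± 15.8 after ethanol in S288c, and to 204 ± 28.5 and 551 ± 62.2 in YJM1129 (SD, n = 3 each).

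The oak strains, high before the stress, responded below the mean. YPS163 had 16 genes below it, where 8.18% of all genes were, led by QCR8 at -1.22, CYT1 at -1.21 and QCR9 at -1.12. YPS606 had 11, where 5.76% were, led by QCR8 at -1.20, COX8 at -0.95 and CYT1 at -0.87. With 1 replicate left out the count in YPS163 was 11 to 13, while that in YPS606 was 2 without replicate 1, 3 without replicate 2 and 13 without replicate 3. CYT1 in YPS163 went from 449, 358 and 375 CPM to 239, 232 and 145. Y10 had 1 gene below (10.7% of all genes), QCR8 at -1.37, whose libraries read 52.6, 34.1 and 55.2 CPM unstressed and 50.5 and 47.6 after ethanol, which overlapped.

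The remaining strains responded above the mean in a few genes each. M1 had 5 (4.66% of all genes): QCR6 at 0.93, ATP20 at 0.91, CYT1 at 0.69, COX6 at 0.63 and COX12 at 0.63. M22 had 4 (5.80%): ATP18 at 1.12, ATP15 at 0.96, COX8 at 0.82 and COX13 at 0.63. YJM308 had 5 (7.39%): NDE1 at 1.07, QCR8 at 1.01, COX13 at 0.88, QCR7 at 0.88 and COX6 at 0.65. These counts rested on single replicates: left out in turn they gave 0 to 3 in M1, 0 to 11 in M22 and 3 to 7 in YJM308. An unstressed difference and a response difference of a strain share its unstressed libraries with opposite sign, so these values are not independent of each other.

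Under NaCl YJM1129 again responded above the mean, in 17 genes where 3.42% of all genes did, led by ATP20 at 0.99, COX4 at 0.89 and SDH2 at 0.88, and below it in 1 (4.38%), NDE2 at -1.40. M22 responded above the mean in 8 (7.21%), led by COX12 at 0.95, COX13 at 0.92 and QCR8 at 0.90. YPS163 had 10 below (7.73%), led by ATP20 at -1.09, COX12 at -0.81 and ATP16 at -0.78, and 1 above (7.11%), NDE2 at 2.02. YPS606 had 6 below (5.27%), led by ATP20 at -0.72, and 2 above (7.73%), NDE2 at 1.54 and SDH4 at 0.72. Y10 had 4 below (4.14%): SDH2 at -0.98, NDE1 at -0.86, CYT1 at -0.77 and QCR2 at -0.72. With 1 replicate left out the number above the mean was 6 to 11 in YJM1129 and 3 to 10 in M22, and the number below it 4 to 9 in YPS163, 1 to 3 in YPS606 and 1 to 4 in Y10. The NDE2 values of YJM1129, YPS163 and YPS606 were each lost in at least 1 of these fits.

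In M1 3 of the 4 complex II genes rose less than the mean with NaCl, and SDH3, at -0.36 ± 0.20, was not called. M1 had 5 genes below the mean (11.1% of all genes), NDE2 at -2.62, SDH2 at -0.83, SDH1 at -0.80, QCR7 at -0.72 and SDH4 at -0.71, and 1 above (12.2%), NDE1 at 0.90. SDH2 in M1 read 32.6, 29.8 and 31.3 CPM unstressed and 37.4, 34.5 and 33.9 after NaCl, while NDE1 read 398, 418 and 425 CPM unstressed and 1122, 1236 and 1366 after NaCl. YJM308 had 1 gene above (1.71%), COX6 at 0.59, which was lost whichever replicate was left out. S288c had 0 in either direction under edgeR, with 1 gene above and 3 below at an unadjusted p under 0.05, and DESeq2 called 0.

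**Figure D4:**
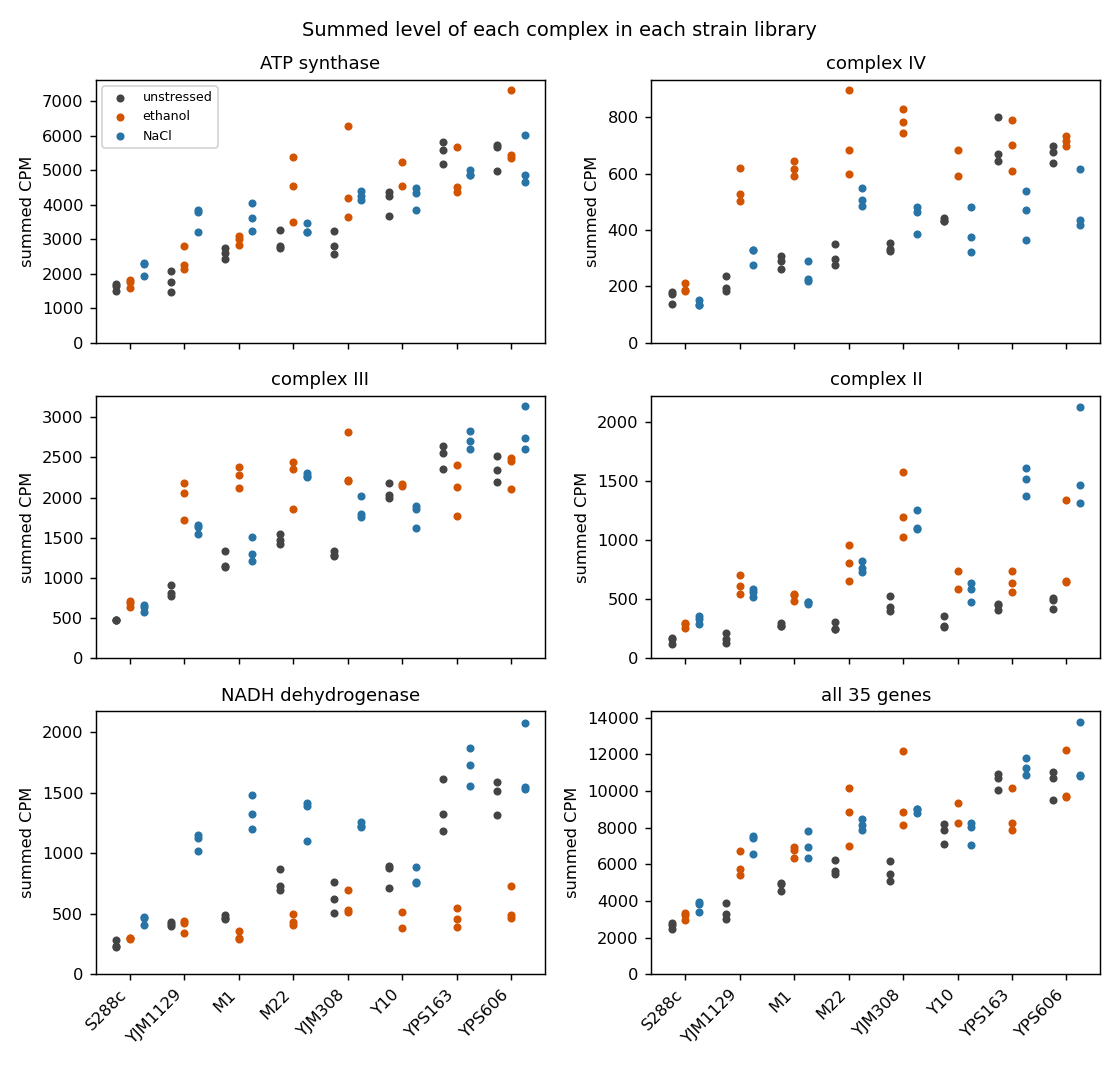
Summed CPM of the genes of each complex, and of all 35, in each library of the 8 strains, unstressed (grey), after ethanol (orange) and after NaCl (blue). The grey points are lowest in S288c or YJM1129 and highest in the oak strains, which YJM308 overlaps in complex II. The orange points of complex IV stay low in S288c alone. Those of the NADH dehydrogenases lie below the grey points in M1, M22, Y10 and the oak strains. They overlap the grey points in YJM1129 and YJM308 and lie above them in S288c.

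After stress the gap between strains remained. The median gap between the highest and the lowest strain mean over the 35 genes was 2.02 on the log2 scale unstressed, 2.02 after ethanol and 1.92 after NaCl, against 0.90, 1.38 and 1.17 over all genes tested. S288c was the lowest strain for RIP1 and CYT1 in all 3 conditions, with gaps of 3.48 and 3.55 unstressed. After ethanol the 35 genes summed to 3166 ± 189 CPM in S288c and 5953 ± 689 in YJM1129, and to 8759 ± 1219 in YPS163 (SD, n = 3 each).

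In the mutant experiment wild-type YPS606 called 5 of the 35 genes higher after ethanol (28.6% of all genes) and 2 lower (28.9%). ATP17, SDH3, SDH4, NDI1 and NDE2 rose, with NDE2 at 4.06 ± 0.34 from 0 to 9 estimated counts in the 16 unstressed libraries, and NDE1 fell by 3.16 ± 0.12 and ATP20 by 1.24 ± 0.13. After NaCl 8 rose (26.7%) and 4 fell (25.9%). The 4 complex II genes, ATP15, RIP1, NDI1 and NDE2 rose, with SDH4 at 2.27 ± 0.15, and ATP4, ATP14, ATP16 and ATP20 fell, ATP20 by 1.49 ± 0.13.

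Loss of MSN2 and MSN4 lowered the ethanol response of the genes and left their unstressed levels within the threshold. The response of 13 of the 35 was below that of the wild type, where 7.88% of all genes were, and all 35 fitted differences lay below 0, with a median of -0.51 against 0.05 for all genes. The 13 were ATP1, ATP2, ATP16, COX13, QCR7, QCR8, QCR10, RIP1, SDH1, SDH3, SDH4, NDI1 and NDE1. NDE1 fell further, with 1225, 1025, 1284 and 1148 CPM unstressed and 136, 128, 129 and 134 after ethanol in the wild type, and 1096, 1119, 1218 and 1011 unstressed and 37.1, 49.8, 39.3 and 43.5 after ethanol in the mutant. The groups after ethanol did not overlap, and the difference in response was -1.56 ± 0.16 (adjusted p = 1.44e-10). SDH4 went from 44.0, 45.7, 52.2 and 43.8 CPM to 41.9, 52.7, 51.5 and 54.8 in the mutant, which overlapped, while in the wild type it went from 54.1, 42.4, 56.3 and 58.2 CPM to 156, 129, 127 and 114. Its difference was -1.21 ± 0.21. QCR8 and NDI1 each differed by -1.10, with SE of 0.17 and 0.14. NDE2 rose by 2.73 ± 0.40 in the mutant, and its difference of -1.33 ± 0.65 was not called. With 1 replicate left out the count of 13 was between 10 and 14.

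After NaCl the same deletion called 0 of the 35 genes in either direction under edgeR, with 0 higher and 4 lower at an unadjusted p under 0.05, and 0 unstressed, with 0 higher and 1 lower. DESeq2 also called 0 in both. SDH4 in the mutant read 203 to 225 CPM after NaCl, and its change of 2.22 ± 0.15 stood beside 2.27 ± 0.15 in the wild type. CYC7, the second cytochrome c gene and not among the 35, differed in response from the wild type by -3.81 ± 0.50 under NaCl and -5.37 ± 0.52 under ethanol.

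The yap1 mutant moved the other way. Its NaCl response was above that of the wild type in 9 genes, where 5.85% of all genes were: ATP15 at 0.96 ± 0.20, ATP18 at 0.89 ± 0.18, ATP20 at 0.85 ± 0.18, with COX9, SDH1, ATP2, NDE1, SDH2 and COR1 at 0.61 to 0.78. The median over the 35 was 0.47 and that of all genes -0.05. Its ethanol response was above the wild type in 4 genes (2.09%), SDH2 at 1.302 ± 0.17, SDH1 at 1.18 ± 0.22, NDE1 at 0.75 ± 0.16 and NDI1 at 0.60 ± 0.14. Unstressed, 2 genes were lower than in the wild type (1.01%), SDH1 at -0.74 ± 0.16 and NDE1 at -0.60 ± 0.11. SDH1 read 84.4, 113, 115 and 117 CPM in unstressed yap1 libraries against 179, 146, 213 and 170.5 in the wild type. After ethanol it read 143, 296, 253 and 283 against 200.1, 169.7, 173 and 158, with the lowest yap1 library below the wild type and the others above it. The response contrasts share these unstressed libraries. With 1 replicate left out the counts were between 1 and 4 for ethanol, between 3 and 11 for NaCl and between 0 and 3 unstressed. The lowest were those without replicates 3 and 4 under each stress and without replicate 3 unstressed.

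The skn7 mutant called 1 gene lower unstressed (0.765% of all genes), NDE1 at -0.64 ± 0.11, and 1 gene with a larger ethanol response (1.18%), SDH2 at 0.72 ± 0.17. The first was lost without replicate 3, and the second without replicate 2, 3 or 4. After NaCl it called 0 under edgeR, with 3 higher and 3 lower at an unadjusted p under 0.05, and DESeq2 called 0.

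**Figure D5:**
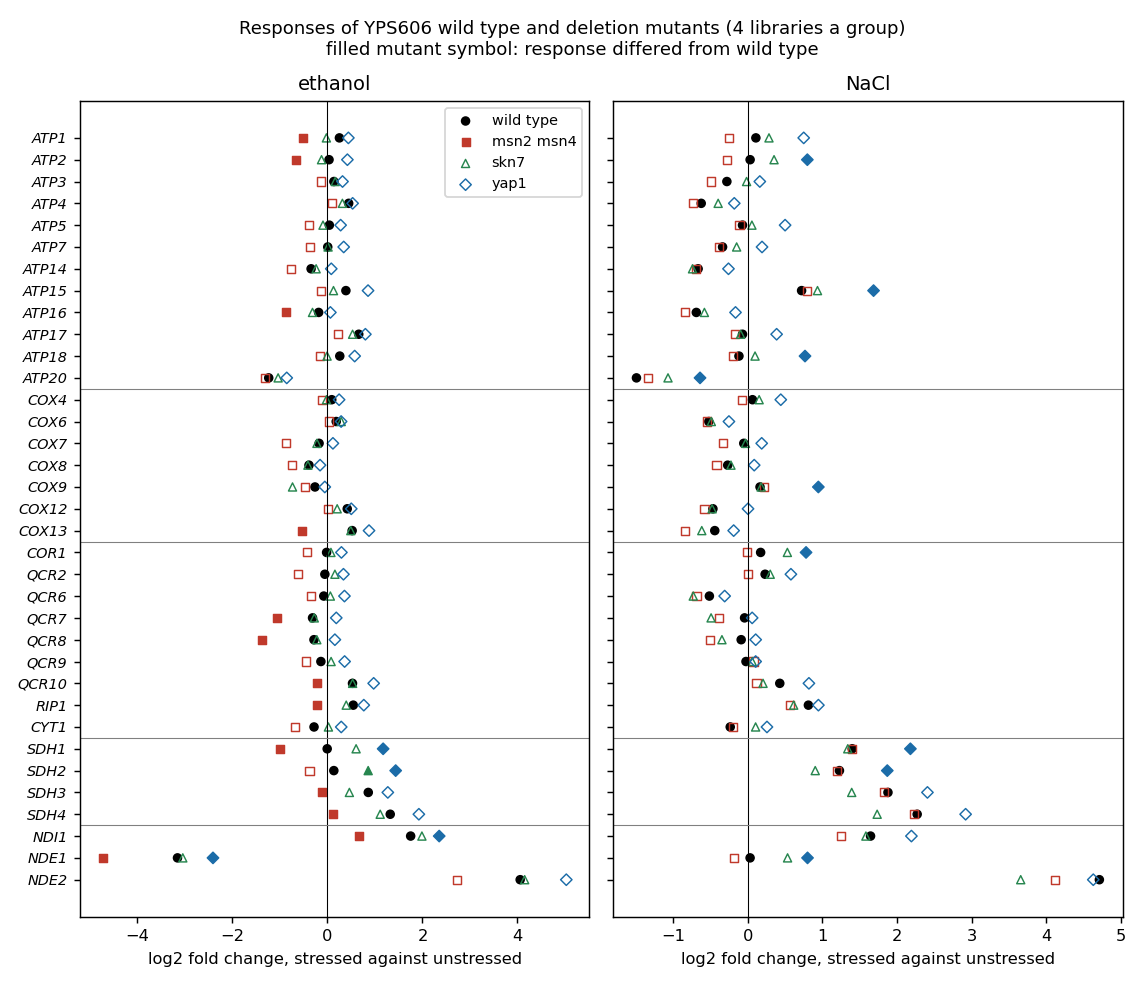
Log2 response of each of the 35 genes to ethanol (left) and NaCl (right) in wild-type YPS606 (black) and in the msn2/4 (red), skn7 (green) and yap1 (blue) mutants, from 4 libraries a group. A filled mutant symbol marks a response that differed from that of the wild type: 13 red symbols are filled under ethanol and 0 under NaCl, and 9 blue ones under NaCl.

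Genes that work beside the 35 were read from lists of the same pathway. CYC7 rose by 7.14 ± 0.15 after ethanol and 3.63 ± 0.16 after NaCl, from a median of 1.51 CPM to 249.6 and 36.9, while CYC1 changed by 0.52 and 0.11 and was called in neither. COX5B rose by 3.30 ± 0.09 and 2.01 ± 0.10 and its partner COX5A, at 0.30 and -0.03, was not called. Of the 4 accessory genes of ATP synthase, the inhibitors INH1 and STF1 rose under both stresses, STF1 by 3.37 ± 0.13 and 2.86 ± 0.13, and ATP19 fell by 1.39 ± 0.12 and 0.66 ± 0.11. Of 29 assembly factors 9 rose and 2 fell after ethanol, beside 29.8% and 28.4% of all genes, and 1 rose and 5 fell after NaCl, beside 18.8% and 20.9%. The riser under both was SDH6, a complex II assembly factor, at 3.61 ± 0.09 and 2.89 ± 0.09. Of 5 genes for Hap regulators, HAP1, HAP2 and HAP4 rose after ethanol, by 0.76 to 0.92, and none was called after NaCl, where they lay between -0.52 and 0.46. Of the paralogs of complex II subunits, YJL045W and SHH4 rose under both stresses, YJL045W from a median of 0.244 CPM to 2.54 and 1.61.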

How the data were processed

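The study sequenced polyadenylated RNA with single-end 50-base reads from the 119 libraries described above. Per the labels and the study's methods, reads were trimmed with Trimmomatic, mapped to S288c with Bowtie2 2.3.4.1 to call variants, from which GATK made a reference for each wild strain, and then aligned to that with STAR 2.6.1. The authors deposited the RSEM 1.3.1 expected counts of 6685 genes, which were rounded to whole numbers here. No column was left unused.

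In R 4.3.3, edgeR 4.0.16 fitted the 71 strain and 48 mutant libraries separately (quasi-likelihood test, TMM scaling, genes averaging 1 CPM or more in some group) with the replicate number as a block, as in the study, whose methods tie each number to a library batch and lane. Residuals correlated at 0.06 and 0.07 between cultures of the same number. P-values were Benjamini-Hochberg adjusted over all genes tested. No replicates agreed within counting noise. The fit was tested on simulated data. The 35 genes and the lists of partner genes were chosen with earlier results of these data known. All called genes were named up to 5 per strain or mutant comparison, and otherwise the 3 with the largest change, beside a few chosen after their values were seen. Alternatives were DESeq2 1.42.0 and its size factors, other filters, thresholds and blocks, and leaving out replicates. The main fit did not model the pairing of libraries by culture. A block by culture ended 2 calls of named values in the comparisons that it could fit, which exclude those between unstressed groups. Promoter windows came from the RefSeq R64 genome, in which 6006 of the 6685 genes were matched. Intervals cover the spread between libraries of these cultures only.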

Additional observations from a re-analysis of the deposited data

Results flagged for a closer look

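In the groups of 4 libraries of the mutant experiment, 9 of 108 sets of summed levels or NADH dehydrogenase levels had a library far from the others for their spread. Chance gives about 1 in 20 for separate sets. These sets overlap, since the sum of all 35 genes holds the complexes, so the 9 are not separate cases. In unstressed msn2/4 a library stood highest for ATP synthase (5352.8 CPM, the others 4632.8 to 4672.8), complex III (1903.3, the others 1654.7 to 1687.1) and all 35 genes (9636.4, the others 8364.9 to 8442.9). After NaCl a msn2/4 library was lowest for ATP synthase (3298.1 CPM, the others 4024.5 to 4158.1) and all 35 genes (7332.3, the others 8540 to 8759.9), and after ethanol the highest complex III sum was 1226 CPM against 1185.7 to 1187. In yap1 the lowest NDE1 library after ethanol read 103.16 CPM and the lowest complex IV sum after NaCl 593.43. The highest wild-type complex II sum after ethanol was 674.38 CPM.

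Responses with genes that differed from the mean of the strains by their own test are given with the share of all genes called the same way. Under ethanol they were 2 above (18.7%) and 5 below (14.7%) in S288c, 5 above in M1 (4.66%), 4 in M22 (5.80%), 15 in YJM1129 (12.2%) and 5 in YJM308 (7.39%), and 1 below in Y10 (10.7%), 16 in YPS163 (8.18%) and 11 in YPS606 (5.76%). Under NaCl they were 1 above (12.2%) and 5 below (11.1%) in M1, 8 above in M22 (7.21%), 4 below in Y10 (4.14%), 17 above (3.42%) and 1 below (4.38%) in YJM1129, 1 above in YJM308 (1.71%), 1 above (7.11%) and 10 below (7.73%) in YPS163 and 2 above (7.73%) and 6 below (5.27%) in YPS606. The counts of S288c and Y10 under ethanol and of M1 under NaCl were near or under the share of all genes. So were the counts under NaCl below the mean in YJM1129 and above it in YPS163 and YPS606. That of YJM308 under NaCl was 1 gene. Against wild-type YPS606 the counts under ethanol were 13 below in msn2/4 (7.88%), 1 above in skn7 (1.18%) and 4 above in yap1 (2.09%). Under NaCl 9 were above in yap1 (5.85%).

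Leaving out 1 replicate moved many of these. Under ethanol the 5 below in S288c became 2 to 4, the 5 in M1 0 to 3, the 4 in M22 0 to 11, the 15 in YJM1129 6 to 15, the 5 in YJM308 3 to 7, the 16 in YPS163 11 to 13 and the 11 in YPS606 2 to 13. Under NaCl the 5 below in M1 became 4 to 5, the 8 in M22 3 to 10, the 4 in Y10 1 to 4, the 17 in YJM1129 6 to 11, the 10 in YPS163 4 to 9 and the 6 in YPS606 1 to 3. The msn2/4 count became 10 to 14, and those of yap1 1 to 4 under ethanol and 3 to 11 under NaCl.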

How the results depend on the processing

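Of 1802 recomputed values for the 138 named gene results, 1704 stayed past the threshold, 98 did not and 0 changed sign. The named results were past the threshold to begin with. The settings of FDR 0.05 with the fold limit and FDR 0.01 without it therefore could not end a call, so the 1704 overstates stability. Most of the 98 came from leaving out a replicate: 25, 26, 21 and 7 without replicates 1, 2, 3 and 4. Without the fold limit the mean ethanol response had 27 genes higher and 3 lower, the NaCl response 19 and 8, ethanol against NaCl 17 and 6, and wild-type YPS606 10 and 4 under ethanol and 10 lower under NaCl, while 8 were lower in unstressed mutants. No share of all genes was counted without the fold limit. The genes lower under NaCl were 1 with DESeq2's size factors, with the DESeq2 Wald test and with all genes that had a count. The DESeq2 Wald test gave 2 genes where edgeR gave 6 below the mean NaCl response in YPS606, 3 where it gave 5 above the mean ethanol response in M1, and 2 where it gave 1 lower in unstressed M1 and in unstressed skn7. DESeq2's size factors moved the median of all genes by at most 0.08 in the comparisons given.

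With 1 replicate left out, the summed counts over strains were 13 to 37 above and 18 to 31 below the mean ethanol response, and 15 to 22 above and 12 to 19 below the mean NaCl response. Genes lower under NaCl were 1 to 2 and those lower in unstressed mutants 0 to 4. The yap1 counts were 1 to 4 under ethanol and 3 to 11 under NaCl. These fits had 2 libraries a strain group, and for Y10 in ethanol down to 1, which was assumed to vary like the other groups.

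Without the replicate block the unstressed counts in S288c, YJM1129, YPS163 and YPS606 were 29, 29, 31 and 30, the msn2/4 ethanol count was 13 and the yap1 NaCl count 6, so no count moved by over 1.5 times. Among alternatives chosen after seeing the data, leaving out YPS606 ethanol replicate 3 ended the call of COX12 in M1 (0.58), and leaving out yap1 ethanol replicate 2 that of NDI1 in yap1 (0.54). Leaving out Y10 NaCl replicate 1 ended that of NDE2 in YJM1129 (-1.38) and left 24 genes below the mean NaCl response over all strains. Depth limits NDE2 most, with a median of 5.5 estimated counts in unstressed strain libraries.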
